A study of Homo sapiens with 3 samples.

Results

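The genes described here are 8 long noncoding RNA (lncRNA) genes known for nuclear bodies, for hosting small RNAs, for imprinting or for roles in vessels: MALAT1, NEAT1, MEG3, H19, GAS5, SNHG1, MIAT and TUG1. They were chosen by symbol in RefSeq gene annotation (GRCh38.p14), where all 8 were found among the 59679 genes of chromosomes with peaks. The table annotates 7 of them as lncRNA and TUG1 as protein-coding, although it is best known as a lncRNA. The material was hCMEC/D3, a line of immortalized endothelial cells from human brain microvessels, with no treatment and no second group. Accessible chromatin was mapped in 1 library, ATAC replicate 2, in which the Tn5 transposase cuts open DNA and each read end is a tag. The same peak list holds 106415 broad peaks from 22188172 tags. With 1 library of 1 cell line, every value below describes that library, has no replicate check and carries no test. The 2 RNA libraries of the series list transcript identifiers without gene names, so the RNA levels of these genes were not analysed here.

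Long noncoding RNAs act as RNA and most are not translated. MALAT1 sits in nuclear speckles, where splicing factors are stored, and NEAT1 is the scaffold around which paraspeckles form. GAS5 and SNHG1 carry small nucleolar RNAs (snoRNAs) in their introns, H19 and MEG3 are imprinted genes expressed mainly from the maternal chromosome, and MALAT1, MEG3, MIAT and H19 have been studied in endothelial growth and vascular disease.

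All 8 genes had a peak within 1 kb of an end (start or far end) of the gene, and 37 peaks in all overlapped the genes or the 10 kb on either side. By the same rule, 38.2% of the 18296 other lncRNA genes and 72.8% of the 20036 other protein-coding genes had an end peak. Of the 37 peaks, 10 lay at an end, 9 lay inside a gene and 18 lay in a flank. A peak inside, away from the ends, was called in 3 members, NEAT1, MEG3 and MIAT with 3 peaks each, against 27.2% of the other lncRNA genes. These are the 3 longest members, and the 27.2% is not matched for length. NEAT1 had the most peaks, 10, followed by MALAT1 with 7, MEG3 and MIAT with 6 each, SNHG1 with 4, GAS5 with 2 and H19 and TUG1 with 1 each. The end count rests on the peak filter: among peaks of at least 4-fold enrichment, 5 of the 8 members kept an end peak and 14 of the 37 peaks remained, with MALAT1, NEAT1 and H19 losing theirs at the ends. Under that filter the order by number turned over: MIAT kept 6 peaks, MEG3 3, SNHG1 2, MALAT1, GAS5 and TUG1 1 each, and NEAT1 and H19 0.

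The signal of a peak is given as its pileup, the authors' single value in extended tags for the whole broad region. It is not a summit height, and a peak called high below has a high value of this kind. Rankings by pileup do not allow for differences in peak length. The fold is that pileup over a local background that the peak caller took from the same library within 10000 bp, so that tags of neighbouring peaks enter it. Member peaks had a median pileup of 46.1 tags, against 21.6 tags over the whole list, and 30 of the 37 were above the list's median. Their median fold was lower, 3.59 against 4.49, with 12 of the 37 above the list's median. The median local background was 10.9 tags, against 3.32 over the list. Peaks at member ends were longer, with a median of 1070 bp, than peaks inside (436 bp) or in the flanks (486.5 bp). Over the whole list the median length was 452 bp. The median length of end peaks over all other genes is not given here, so this difference is not shown to be particular to the members.

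**Figure D1:**
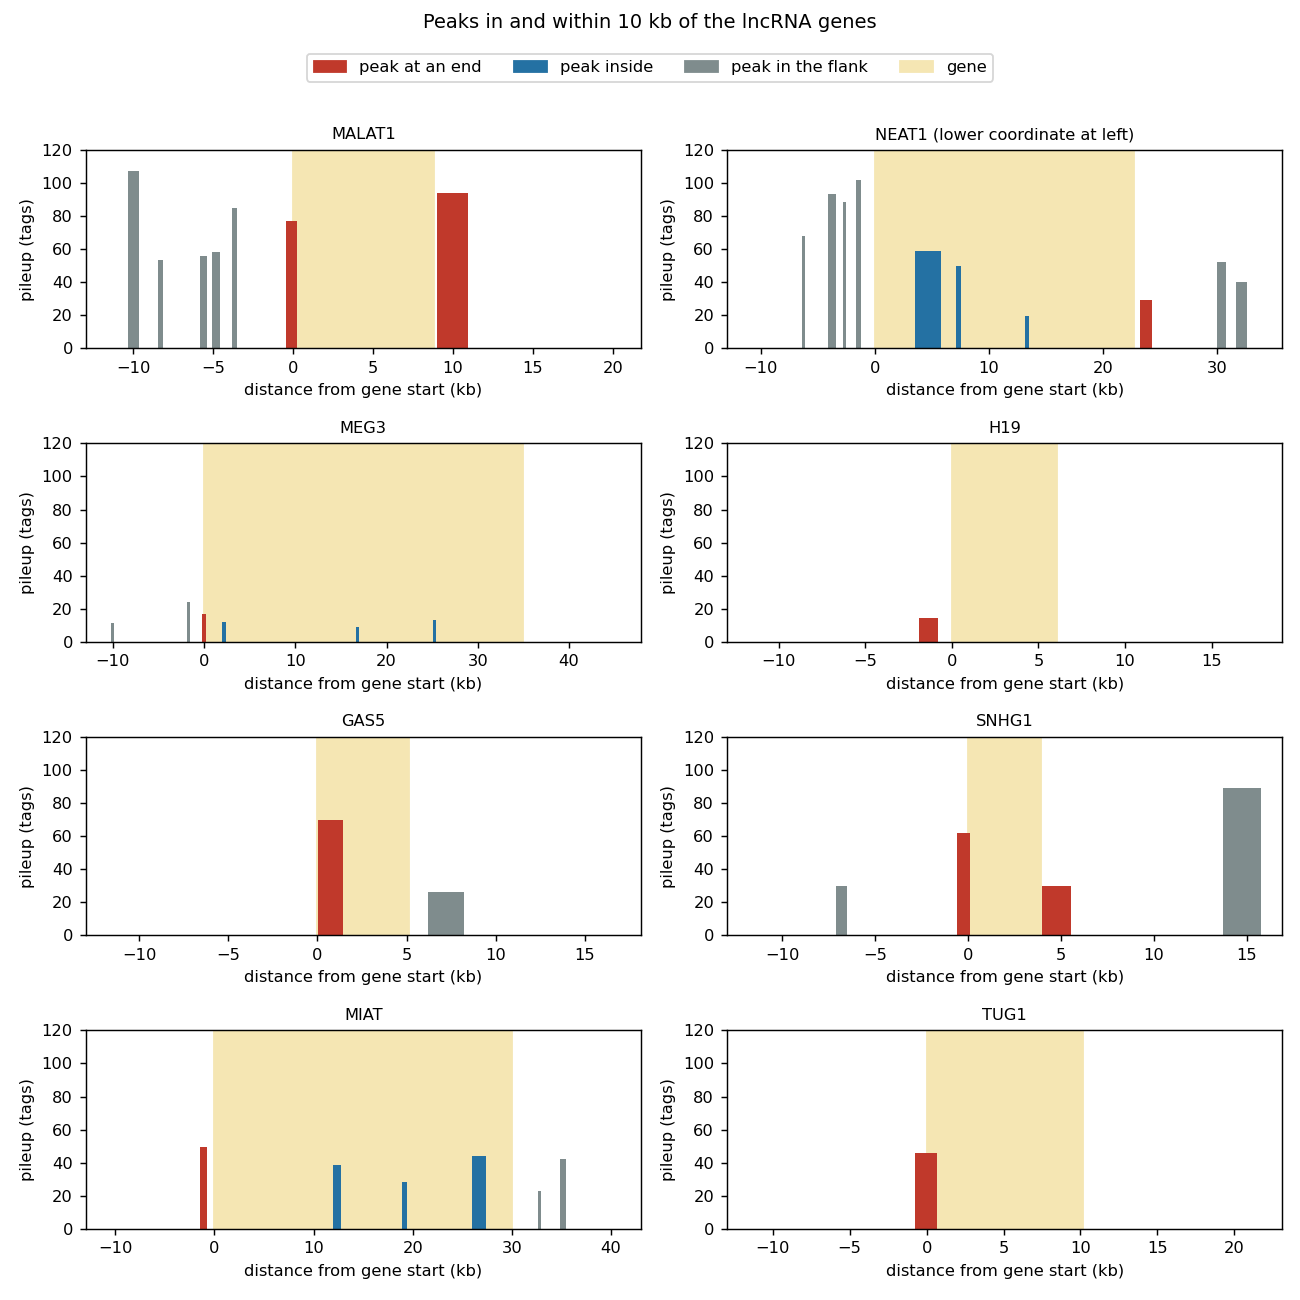
Pileup (tags) of each peak against distance from the gene start (kb) for the 8 genes, each drawn in the direction of transcription except NEAT1, whose strand the tables do not give. Bars have the width of the peak, widened where it would be too thin to see; red bars lie at an end, blue inside, grey in the flank, and the yellow band is the gene. MALAT1 and SNHG1 have a peak at both ends and none inside, while NEAT1, MEG3 and MIAT have 3 inside.

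MALAT1, a gene of 8.78 kb, was flanked by accessible chromatin on both sides and had no peak inside. The start peak, on chromosome 11 from 65497265 to 65497956, had a pileup of 77.3 tags, a fold of 3.82 and a length of 692 bp. The far-end peak, from 65506730 to 65508699, began 214 bp beyond the gene, had 94.0 tags and a fold of 3.32, and was 1970 bp long. Only 0.67% of all peaks were as long as this one. It also lay within 1 kb of ends of TALAM1, the antisense transcript of MALAT1, and of MASCRNA, the small cytoplasmic RNA cut from the MALAT1 3′ end, so these 3 genes cannot be told apart there. Between the 2 peaks, 8.56 kb of the gene held none. The local background of MALAT1 peaks was 19.5 to 27.6 tags, so weaker sites in that stretch could go uncalled. A further 5 peaks lay upstream, at gaps of 3.49 to 9.68 kb from the gene. The highest of them, from 65487426 to 65488056, reached 107 tags within 1 kb of an end of LINC02736, and 0.126% of all peaks were as high.

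RefSeq gives MALAT1 2 start windows, each running from 250 bases before to 50 bases after a transcript's start. They are shown because the peak separates them: the upstream window lay wholly in the start peak, and the inner one, whose start is 1089 bp from the nearest peak, had 0 of its 300 bases in any peak. Capitals mark matches, on either strand, to 8 short motifs that are often found near starts of transcription. The TATA box, which sets the start at some promoters, was searched as TATAAA. The GC box bound by SP factors was searched as GGGCGG, the CCAAT box by its name, and the E-box bound by factors such as MYC and USF as CACGTG. The cyclic AMP response element was searched as TGACGTCA, and a motif of the respiratory gene regulator NRF1 as GCGCATGCG. The motif of AP-1 factors was searched as TGANTCA, and that of the ETS family, which includes endothelial regulators, as CCGGAAG. No matches overlapped each other in the member windows, which is why each capital run is 1 match or matches end to end.
MALAT1 upstream start, GRCh38.p14 chr11:65497488-65497787, plus strand: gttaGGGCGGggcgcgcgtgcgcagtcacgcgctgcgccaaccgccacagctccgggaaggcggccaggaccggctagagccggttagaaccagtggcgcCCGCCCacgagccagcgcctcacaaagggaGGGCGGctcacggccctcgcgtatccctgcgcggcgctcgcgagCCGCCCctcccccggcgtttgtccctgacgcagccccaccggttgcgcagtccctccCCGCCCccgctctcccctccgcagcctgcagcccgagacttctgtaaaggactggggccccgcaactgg
MALAT1 inner start, GRCh38.p14 chr11:65498795-65499094, plus strand: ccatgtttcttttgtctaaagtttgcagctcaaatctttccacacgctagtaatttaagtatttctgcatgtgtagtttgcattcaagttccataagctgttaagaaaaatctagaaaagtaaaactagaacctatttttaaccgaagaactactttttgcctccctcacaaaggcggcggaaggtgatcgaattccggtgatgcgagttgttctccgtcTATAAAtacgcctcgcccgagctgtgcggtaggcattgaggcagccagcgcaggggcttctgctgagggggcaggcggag
The upstream window was 73.7% G or C with 37 CpG pairs and 5 GC boxes, 2 of them as written and 3 on the other strand. The inner window was 46.0% G or C with 14 CpG pairs, and it held a TATA box 30 bases before the start. A GC box was present in 45.0% of all 35116 RefSeq start windows and a TATA box in 11.5%.

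NEAT1, which is 22.7 kb long, held the member peak with the highest local background, 35.3 tags, and had a low fold throughout. Its median background, 25.3 tags, was close to the 25.5 tags of MALAT1. The 10 peaks of NEAT1 had pileups of 19.7 to 102 tags with a median of 55.5. Their folds were 1.95 to 3.80 with a median of 2.60. The highest, on chromosome 11 from 65421154 to 65421604, had 102 tags and a fold of 2.83, and it ended 1194 bp before the lower-coordinate end of the gene, just outside the 1 kb that counts as an end. With windows of 2500 bp it would be the end peak of NEAT1. The peak that did count, from 65446023 to 65447064, lay 483 bp beyond the opposite end with 29.1 tags and a fold of 2.32. Inside the gene, a peak of 2281 bp from 65426275 to 65428555 had 58.7 tags, and 0.236% of all peaks were as long. The other inside peaks had 50.1 and 19.7 tags. NEAT1 hosts the microRNA gene MIR612, which lay 1466 bp from the nearest peak. Peaks covered 13.4% of the gene, against 2.49% for MALAT1.

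NEAT1 and MALAT1 lie next to each other on chromosome 11, 52.2 kb apart, and their peaks stood on a high background. The 17 peaks of this pair had a median pileup of 58.7 tags, a median background of 25.4 tags and a median fold of 2.62. The 20 peaks of the other 6 genes had 29.0 tags, 4.52 tags and 4.52-fold. A background of at least 20 tags, found for 1.30% of all peaks, was found for 11 of the 17 and for 1 of the 20. The 1 Mb bin that holds both genes had 31 such peaks of 128, the second highest number among the 397 bins with any, after a bin of chromosome 21 with 36 of 52. By median background, 11.2 tags, it was also second of the 2211 bins with enough peaks (at least 10). Of the 13 peaks between the genes, 4 had a background of at least 20 tags, all of them flank peaks of MALAT1 already counted among the 11. The peaks between the genes that belong to neither gene nor its flanks had backgrounds of 11.7 to 16.3 tags. Tags of neighbouring peaks enter this background, and their part in its height was not tested.

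**Figure D2:**
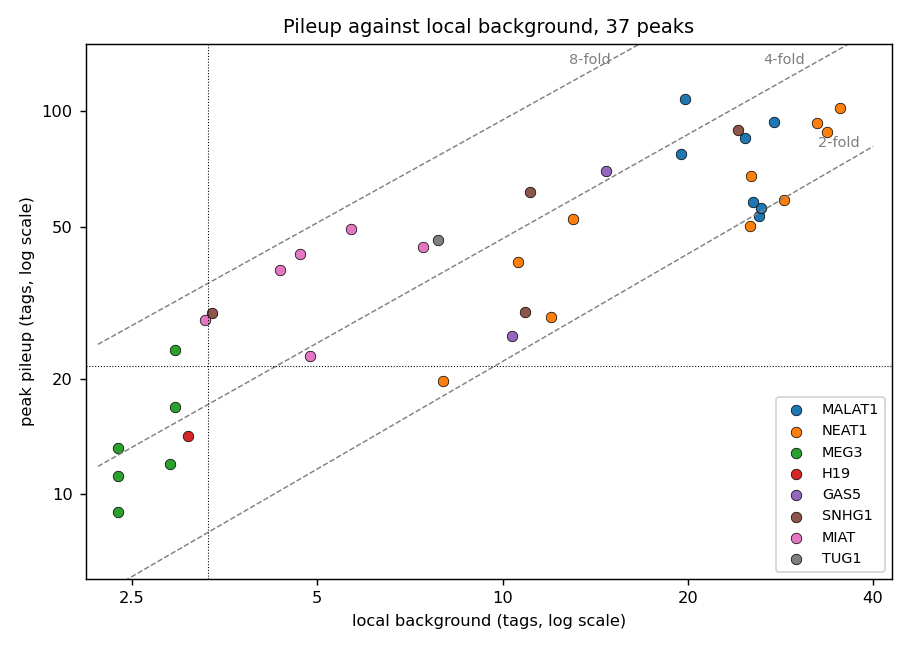
Pileup (tags) against local background (tags), both on log scales, for the 37 peaks, coloured by gene; dashed lines mark folds of 2, 4 and 8, and dotted lines the medians of all peaks, 21.6 and 3.32 tags. All 7 MALAT1 peaks and 9 of the 10 NEAT1 peaks lie above both medians, 1 NEAT1 peak has 19.7 tags, MIAT folds run from 4.09 to 7.62, and all 6 MEG3 peaks lie left of the median background.

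MIAT, also called Gomafu, is retained in the nucleus and is named for a genetic association with myocardial infarction. In a gene of 30.1 kb it had 6 peaks with folds of 4.09 to 7.62 and a median of 7.13, the highest median among the 8 genes, at pileups of 23.0 to 49.3 tags. The highest fold, 7.62, was reached or passed by 6.92% of all peaks. The end peak, on chromosome 22 from 26645005 to 26645708, had 49.3 tags and a fold of 7.53 and ended 721 bp before the annotated start, where the pseudogene ISCA2P1 also has an end. The 300-base start window of MIAT itself lay outside every peak. Inside the gene, peaks of 38.5, 28.4 and 44.2 tags lay with their middles 12.4, 19.2 and 26.7 kb from the start. The third of these covers an end of MIATNB, the neighbouring lncRNA, and 2 more peaks in the flank lay within MIATNB. Local background was 3.28 to 7.42 tags.

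GAS5 and SNHG1, the snoRNA hosts, each had a high peak at the start that also holds an end of a protein-coding gene. At GAS5, on chromosome 1, the peak from 173867587 to 173869033 had 69.7 tags and a fold of 4.50, and 3.24% of all peaks were as high. It ended 12 bp inside the RefSeq start of GAS5 and so ran into the gene, covering 28.1% of it, and it also covered an end of ZBTB37, a zinc finger gene. Only 38 of the 300 bases of the GAS5 start window were in it. Of the 11 snoRNA genes inside GAS5, the peak covered 1, SNORD74. The next peak, of 25.9 tags, lay 1037 bp past the far end, at GAS5-AS1.

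At SNHG1, on chromosome 11, the start peak from 62855780 to 62856500 had 61.6 tags and a fold of 5.19 and covered the whole start window. SLC3A2, which encodes the heavy chain of amino acid transporters, has an end in the same peak, so accessibility there cannot be assigned to either gene. A second end peak, from 62850363 to 62851941, lay 37 bp past the far end with 29.9 tags. None of the 9 snoRNA genes inside SNHG1 lay in a peak, and their gaps to the nearest one ran from 149 bp for SNORD25 to 1812 bp for SNORD29. The peak of 89.3 tags in the flank of SNHG1, from 62840111 to 62842171, lies at ends of WDR74 and RNU2-2, a U2 small nuclear RNA gene.

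The start windows of SNHG1 and TUG1, the other members wholly inside a peak, are given for comparison with the upstream window of MALAT1.
SNHG1, GRCh38.p14 chr11:62855836-62856135, minus strand: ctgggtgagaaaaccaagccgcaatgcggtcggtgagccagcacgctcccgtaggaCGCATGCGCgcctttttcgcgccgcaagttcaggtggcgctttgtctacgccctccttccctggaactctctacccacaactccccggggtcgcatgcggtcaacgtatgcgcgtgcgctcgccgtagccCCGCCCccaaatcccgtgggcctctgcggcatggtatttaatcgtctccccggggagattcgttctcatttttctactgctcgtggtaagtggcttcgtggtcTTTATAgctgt
TUG1, GRCh38.p14 chr22:30969015-30969314, plus strand: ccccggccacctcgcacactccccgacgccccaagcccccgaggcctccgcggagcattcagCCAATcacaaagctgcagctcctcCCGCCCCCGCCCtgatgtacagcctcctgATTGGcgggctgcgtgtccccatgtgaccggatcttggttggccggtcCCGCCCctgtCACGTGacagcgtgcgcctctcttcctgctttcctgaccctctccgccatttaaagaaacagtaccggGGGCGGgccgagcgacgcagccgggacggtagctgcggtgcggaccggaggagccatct
SNHG1 had 60.0% G or C and 30 CpG pairs, 1 GC box, and a match to the NRF1 motif 194 bases before the start, one present in 1.92% of all windows. Its TATA match lies after the start on the other strand. TUG1 had 67.7% G or C and 28 CpG pairs, 4 GC boxes, 2 CCAAT boxes and an E-box. An E-box was present in 7.26% of all windows and CCAAT in 34.6%.

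TUG1, a widely expressed lncRNA first found as a transcript raised by taurine, had 1 peak in the gene and its surroundings. It lay across the start on chromosome 22 from 30968502 to 30969952, with 46.1 tags, a fold of 5.31 and a length of 1451 bp. MORC2, a chromatin-compacting ATPase gene, has an end in the same peak. The remaining 9.44 kb of TUG1 and both flanks held no peak.

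The imprinted genes MEG3 and H19 had the lowest end peaks. MEG3, the longest member at 34.9 kb, had 6 peaks of 8.95 to 23.8 tags, and its median of 12.6 tags was under the list's median of 21.6. The peak over its start, on chromosome 14 from 100825916 to 100826284, had 16.9 tags and a fold of 4.54 and was 369 bp long. The highest, from 100824275 to 100824585, lay 1523 bp before the start with 23.8 tags and a fold of 6.30. Of the 3 inside peaks, 2 had the list's minimum length of 200 bp, and the weakest, of 8.95 tags, stood close to the lowest pileup in the list, 8.0 tags. Local background was 2.37 to 2.94 tags, with 2.37 the floor that the caller sets.

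H19 had 1 peak, on chromosome 11 from 2002085 to 2003182, beginning 819 bp upstream of the start and inside MRPL23, a mitochondrial ribosomal protein gene. It had 14.2 tags and a fold of 3.72 over 1098 bp. No peak covered any base of H19 itself, 6.09 kb, or its start window.

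The start windows of these 2 genes are given because one was in a peak and the other was not, at nearly the same share of G and C.
MEG3, GRCh38.p14 chr14:100825858-100826157, plus strand: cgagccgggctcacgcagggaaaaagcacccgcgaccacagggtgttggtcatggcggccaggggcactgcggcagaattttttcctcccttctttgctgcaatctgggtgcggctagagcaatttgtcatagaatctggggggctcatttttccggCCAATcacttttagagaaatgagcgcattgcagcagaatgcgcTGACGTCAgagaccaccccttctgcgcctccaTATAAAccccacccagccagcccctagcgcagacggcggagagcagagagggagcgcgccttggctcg
H19, GRCh38.p14 chr11:2001217-2001516, minus strand: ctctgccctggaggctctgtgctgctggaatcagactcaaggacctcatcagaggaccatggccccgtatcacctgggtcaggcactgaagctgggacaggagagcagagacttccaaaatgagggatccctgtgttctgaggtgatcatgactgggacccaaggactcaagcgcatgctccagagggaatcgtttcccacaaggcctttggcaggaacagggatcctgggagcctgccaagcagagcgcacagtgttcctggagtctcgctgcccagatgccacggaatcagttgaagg
The MEG3 window, the first of 3 that overlap, had 242 bases in the peak. It was 59.0% G or C with 19 CpG pairs and held a CCAAT box, a TATA box and a full cyclic AMP response element 50 bases before the start, a match present in 1.85% of all windows. The H19 window was 57.7% G or C with 6 CpG pairs and held none of the 8 motifs; the MIAT window, with 56.3% and 3 CpG pairs, held none either. An absent match says only that these letters are not in the window.

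MEG3 and H19 are also host genes of microRNAs, whose mature sequences RefSeq gives as follows, with the seed (bases 2 to 8) in capitals.
hsa-miR-770-5p, in MEG3: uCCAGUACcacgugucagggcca
hsa-miR-675-5p, in H19: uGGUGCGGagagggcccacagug
hsa-miR-675-3p, in H19: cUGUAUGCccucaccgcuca
The 3 seeds differ. The hairpin gene MIR770 lay 921 bp from an inside peak of MEG3 with 13.2 tags, on chromosome 14 from 100851195 to 100851469. MIR675 lay 5254 bp from the H19 peak.

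Across the members, 7 have RefSeq start windows and 5 of these have at least 1 that overlapped a peak, MALAT1, MEG3, GAS5, SNHG1 and TUG1. By window the count was 7 of 10, which includes 3 MEG3 windows that overlap each other and meet the same peak. Among the other lncRNA genes 29.8% of 12908 start windows overlapped a peak, and among protein-coding genes 64.8%. That share rose with base composition over the other lncRNA genes, from 5.57% (95% Wilson interval 4.76% to 6.51%) in the fifth of windows with least G and C to 72.8% (71.0% to 74.5%) in the fifth with most. The GAS5 window, with 37.7% G or C, belongs to the lowest of these 5 classes, and the upstream MALAT1 window and that of TUG1 belong to the highest. In windows of lncRNA genes with a peak, including members annotated as lncRNA and so not TUG1, a GC box was present in 56.7%, against 12.3% of those without one. A TATA box was present in 6.63% and 18.7%.

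**Figure D3:**
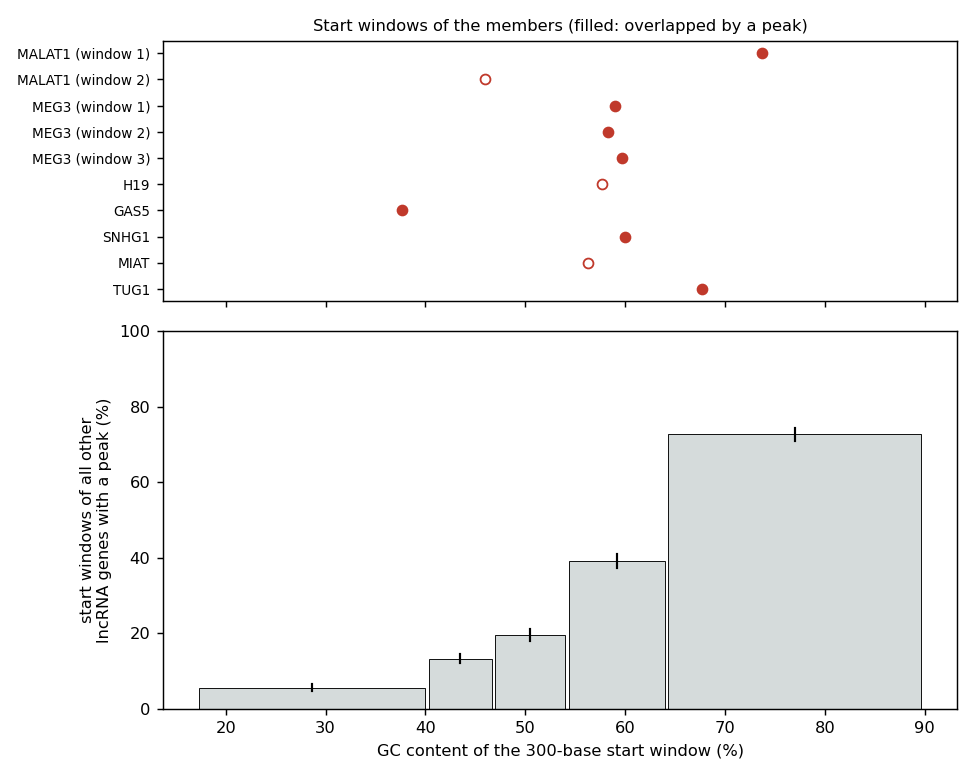
Top, GC content (%) of each RefSeq start window of 7 members, filled where a peak overlaps it. Bottom, the share (%) of start windows of all other lncRNA genes that overlap a peak, in 5 classes of GC content with 95% Wilson intervals (counting error only); the share climbs from 5.57% to 72.8%.

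Each member was then set against all other lncRNA genes of 0.5 to 2 times its length, 4387 to 7015 genes. In these sets the share with an end peak was 34.4% to 41.3%, and the median number of peaks was 1 or 2. A peak inside was found at 42.5% of genes similar in length to NEAT1, 48.1% for MEG3 and 46.2% for MIAT. The shares with 3 or more inside, the number in each of these members, were 9.71%, 16.4% and 13.5%. In the sets of the 5 members without an inside peak, 9.76% to 28.0% of genes had one. NEAT1 and MALAT1 had many peaks for their length: 0.699% of genes of similar length had 10 or more, and 1.85% had 7 or more. These numbers are of peaks at the authors' threshold, and among peaks of at least 4-fold NEAT1 went from 10 to 0 and MALAT1 from 7 to 1. For MIAT and MEG3 the share with 6 or more was 11.1% and 12.5%, and for SNHG1 with 4 or more it was 13.9%. GAS5, with 2 peaks, was matched or passed by 45.3%, and H19 and TUG1, with 1, by 66.4% and 66.5%. The genes with most peaks in these sets were LOC105374929 with 12 (for MALAT1, H19 and TUG1), LOC124903876 with 15 (NEAT1), DANT1 with 19 (MEG3), LOC105371344 with 11 (GAS5 and SNHG1) and ST6GALNAC4-ST6GALNAC6-AK1 with 17 (MIAT).

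The order changed when the pileup of the end peak was compared. Among genes of similar length that had an end peak, 1.02% had one as high as MALAT1's 94.0 tags, 8.12% as high as GAS5's 69.7 and 13.5% as high as SNHG1's 61.6. The MALAT1 value is that of its far-end peak, at a fold of 3.32 and a background of 27.6 tags. The MALAT1 start peak had 77.3 tags, and no end peak of MALAT1 reached 4-fold. For MIAT (49.3 tags) and TUG1 (46.1 tags) the shares were 28.1% and 30.3%. NEAT1, MEG3 and H19 were in the lower part, with 56.1%, 76.2% and 87.1% as high or higher. The place of NEAT1 depends on the 1 kb window. Its value is the peak of 29.1 tags, while its peak of 102 tags lay 1194 bp from the other end and was not counted. The median of those sets was 32.5 to 33.9 tags, so 5 members lay above it and 3 below. The highest end peak belonged to LOC105372884 (129 tags) in the sets of NEAT1, MEG3, MIAT and TUG1, and to LOC124902040 (124 tags) in those of H19, GAS5 and SNHG1. By length, a peak of 2281 bp or more was found at 0.555% of genes similar to NEAT1, and 54.4% had one as long as the longest of MEG3, 369 bp. A local background as high as the 35.3 tags at NEAT1 was found for 0.0179% of similar genes.

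**Figure D4:**
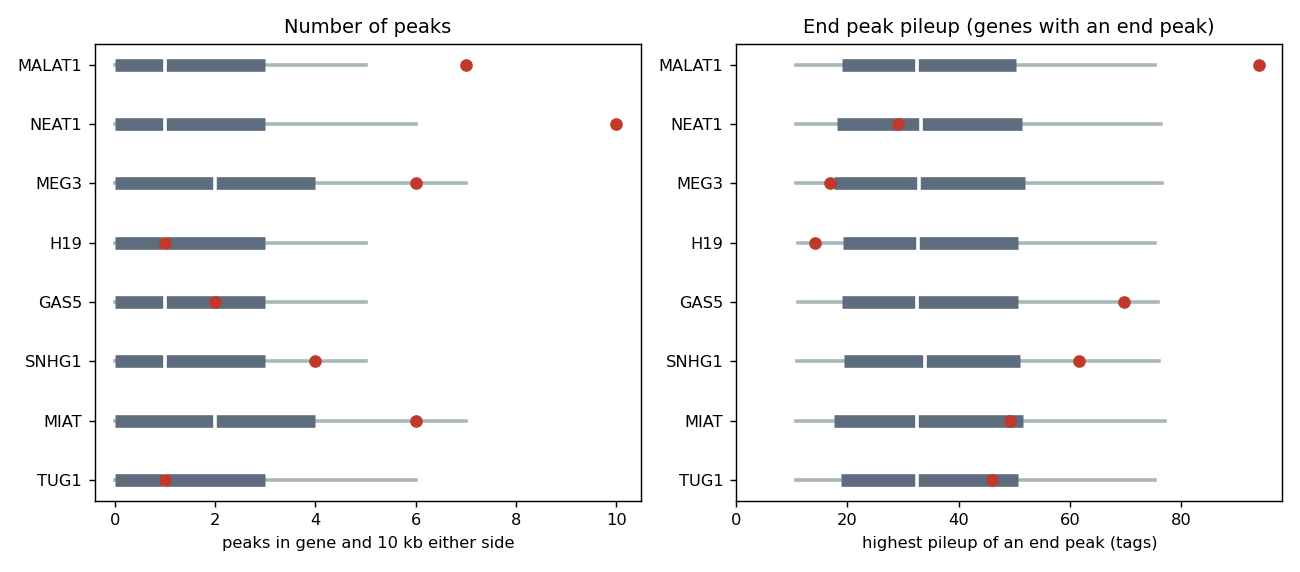
Left, number of peaks in the gene and 10 kb either side; right, highest pileup (tags) of an end peak, over genes that have one. Red points are the 8 members; thick bars span the quartiles, thin lines the 5th to 95th percentiles and white marks the medians of lncRNA genes of 0.5 to 2 times the length. NEAT1 and MALAT1 lie beyond the lines for number, and MALAT1 for pileup, where its point is the far-end peak at a fold of 3.32.

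Nearness to protein-coding genes moved with these shares. Of the other lncRNA genes, 3174 have an end within 1 kb of an end of a protein-coding gene, and 80.4% of them had an end peak, against 29.3% of the rest. The part of such neighbours in the peaks of the members was not tested. When the sets of similar length were limited to the rest, the share with an end peak was 26.3% to 32.8%. Among the 10 end peaks of the members, 6 also touched the 1 kb around an end of another gene of any kind. A protein-coding gene was among these at the start peaks of GAS5 (ZBTB37), SNHG1 (SLC3A2) and TUG1 (MORC2). At the remaining ones it was TALAM1 and MASCRNA (MALAT1), SNORD22 (far end of SNHG1) or the pseudogene ISCA2P1 (MIAT). The 4 that touched none were the start peaks of MALAT1 and MEG3, and the end peaks of NEAT1 and H19. No such share is given here for end peaks of other lncRNA genes.

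Related genes were read in the same way, from lists chosen with earlier results of these data known. An end peak was found at 15 of 15 other snoRNA host genes, with a median of 53.0 tags over their highest end peaks, against 38.2% and 34.3 tags over the other lncRNA genes. ZFAS1 had the highest, 100.2 tags, and SNHG17 the lowest, 27.6 tags. Of 15 other lncRNA genes studied in vessels, 14 had one, from 38.8 tags at KCNQ1OT1 to 107 at MIR22HG, host of miR-22. HOTAIR, a lncRNA of the HOXC cluster, had none. LINC00520, a lncRNA raised by laminar flow, had 2 end peaks, the higher of 46.7 tags, and SENCR, antisense to FLI1, had 1 of 50.3 tags at a background of 22.2.

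The genes for paraspeckle proteins, which coat NEAT1, had an end peak in 12 of 12, with a median of 47.5 tags against 72.8% and 45.7 tags over the other protein-coding genes. They included SFPQ with 47.8 tags, NONO with 30.1 and PSPC1 with 28.5. The nuclear speckle list had 12 of 12 with a median of 53.6 tags, among them SON with 61.1 tags, SRRM2 with 63.0 and SRSF2 with 74.4. That list also counts ELAC2, with 68.3 tags, whose place among nuclear speckle genes was not checked. Of 8 imprinted neighbours of MEG3 and H19, 4 had an end peak, against 42.1% of all genes. These were MEG9 (51.5 tags, fold 7.57), IGF2 (10.9 tags), KCNQ1OT1 (38.8 tags) and CDKN1C (29.3 tags), while DLK1, RTL1, MEG8 and INS had none.

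**Figure D5:**
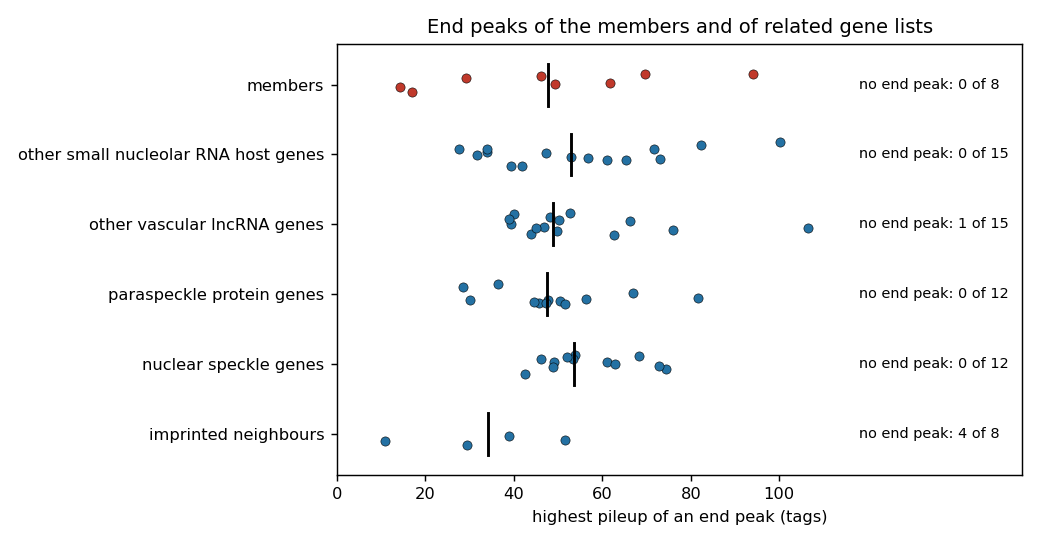
Highest pileup (tags) of an end peak for each member (red) and each gene of 5 related lists (blue), spread vertically only to separate points; black marks are medians and the right column counts genes without an end peak. The members span 14.2 to 94.0 tags, and 4 of the 8 imprinted neighbours have no end peak.

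As a check of the cell line label, 10 of 10 endothelial marker genes had an end peak, with pileups from 11.0 tags at ERG to 75.0 at EGFL7 and a median of 40.2, against 45.7 over the other protein-coding genes. So did 4 of 6 mural, 2 of 5 astrocyte, 4 of 5 neuronal and 3 of 5 microglial or macrophage marker genes, against 72.8% of protein-coding genes. End peaks alone therefore do not separate these cell types, and no level of other cells can be read from 1 peak list.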

How the data were processed

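Chromatin accessibility was read from 1 deposited broad peak list of hCMEC/D3 ATAC replicate 2. Per the file headers, the authors called peaks with MACS 2.2.7.1 without a control, shifting tags by -100 bp and extending them to 200 bp, reading the paired library as single ends, at q cutoffs of 0.05 (strong regions) and 0.1 (broad regions) with an effective genome size of 1870000000 bp, the mouse preset. Of 31532245 tags, 22188172 remained after keeping 1 per position. The deposited columns are the pileup signal (tags, not scaled to depth), the fold enrichment (a ratio), and the p-value and q-value as −log10, all the authors' values, beside position and length. The aligner and build of this file are not stated in its header; the submitters' processing notes name Bowtie2, SAMtools 1.13, Picard and MACS2 with the builds GRCh38 and mm10. With the GRCh38.p14 start windows of other protein-coding genes, 64.8% overlapped a peak, and 5.51% to 6.47% did after offsets of 2 to 50 kb, so GRCh38 positions were used.

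Genes and start windows came from RefSeq tables (GRCh38.p14). A peak counted at an overlap of at least 1 bp: at an end (1 kb either side), else inside, else flank (10 kb). Local background was computed as (pileup + 1) / fold − 1 from the values of whole regions, so it is approximate. By this formula 34.7% of peaks sat within 0.01 tags of the floor of 2.37 tags. The gene table has no strand, so strand was taken from the start windows. The placement rule was tested on made-up intervals. Shares carry 95% Wilson intervals where given, which cover counting error only. Analyses used Python 3.11.15, pandas 2.3.3 and scipy 1.17.1. Named genes were the 8 members, genes sharing their end peaks, the gene lists and the highest genes of each comparison set (1 is not reported here); other genes near a flank peak were named after their values were seen. Members, the naming rule and lists were chosen with earlier results of these data known. Start windows of NEAT1 were not used here. Alternatives were peak filters, overlap, end window, flank, length band and comparison genes.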

Additional observations from a re-analysis of the deposited data

How the results depend on the processing

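Peaks of at least 4-fold were fewer: 14 of the 37 member peaks remained, and 5 of the 8 members had one at an end. The count at ends was 6 with −log10 q of at least 5 (NEAT1 and H19 without one), 6 with end windows of 500 bp (H19 and MIAT without one), 7 where 200 bp had to overlap and 8 with 2500 bp windows. The peak total was 25 to 37 in the settings other than the fold filter. Members with a peak inside numbered 2 or 3 in each setting run. The median share, over the 8 sets, of lncRNA genes of similar length with an end peak was 37.6%. It was 27.4% under the fold filter, 31.5% under the q filter, 35.3% where 200 bp had to overlap, 31.5% in 500 bp windows, 49.3% in 2500 bp windows and 30.2% for lncRNA genes away from protein-coding ends; in the narrower length band it was 37.2%. Of 48 peak numbers of single members, 36 were within 1.5 times the reported one. The others were, under the fold filter, NEAT1 (10 to 0), MALAT1 (7 to 1), MEG3 (6 to 3), SNHG1 (4 to 2), GAS5 (2 to 1) and H19 (1 to 0); under the q filter NEAT1 (to 6), MEG3 (to 3), GAS5 (to 1) and H19 (to 0); and with a 5 kb flank MALAT1 (to 4) and SNHG1 (to 2). For end pileups, a setting can change only which peak counts and not its deposited value, so sameness was largely fixed in advance. Members left without an end peak were not compared. Of the 32 end pileups compared, 30 were the same. The others were NEAT1 (102 tags) and MEG3 (23.8 tags) with 2500 bp windows. The cause of these moves was not tested beyond the smaller number of peaks under a filter. No paired analysis was possible because there is 1 ATAC library and no second group. Depth limits what is seen: no peak under 8.0 tags was called, so accessibility below that pileup was not detectable here. Where the local background is high, sites above 8.0 tags can also go uncalled, because the caller compares each pileup with that background. At MALAT1, with backgrounds of 19.5 to 27.6 tags, the lowest called peak had 53.2 tags at 2.00-fold. Peak numbers and stretches without a peak therefore do not share 1 limit of detection across the members.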
